A study of Mus musculus with 4 samples.

Results

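The complement system is described here through 9 genes in embryonic mouse lung, namely the components *C3*, *Cfb*, *Cfd* and *C1ra*, the regulators *Cfi*, *Serping1* and *Cd55*, and the receptors *C3ar1* and *C5ar1*. They were chosen by name, with earlier results of these data known. A gene was measured through probe sets that the platform's annotation pairs with its symbol alone. This found 7 of the 9 among 19938 genes on the arrays, each with 1 probe set, while *C3*, the component on which all routes of activation meet, and *Cfd*, the protease that cleaves factor B, were not analysed here. The arrays hold lung of C57BL/6 wild type (WT) embryos and of embryos labelled C57BL/6 *Hmga2* KO, all at embryonic day 18.5 and from timed pregnancies, with 2 arrays per genotype and no other allele or agent in either group. The mice came from an *Hmga2*+/− stock, no Cre line or promoter is named for the knockout, and sex, littermates and pooling of embryos are not given in the sources used here.

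Complement is a cascade of proteases in plasma and tissue fluid. Its classical route starts when C1q binds antibody or a surface and activates the proteases C1r and C1s, the lectin route starts with mannose-binding lectins and ficolins, and the alternative route amplifies either one through factor B, factor D and C3. Cleavage of C3 and C5 releases the small peptides C3a and C5a, which attract and activate leukocytes through the receptors C3AR1 and C5AR1, and the remainder of C5 joins C6, C7, C8 and C9 in a pore. Inhibitors in plasma (C1 inhibitor, factor I) and on cell surfaces (CD55, CD46, CD59) hold the cascade in check. The liver is the main source of the plasma proteins, and lung epithelium, fibroblasts and macrophages make part of them locally.

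Values are the log2 expression values that the authors deposited, and every difference is the mean of the arrays labelled KO minus the mean of the WT arrays, tested with limma over all 19938 genes with adjustment by Benjamini and Hochberg. The *Hmga2* probe set read 9.35 and 9.59 in WT and 9.65 and 9.39 in the arrays labelled KO, so it did not separate the genotypes, and whether it lies in the deleted part is not known here. The lung markers *Sftpc* (13.97 to 14.13) and *Nkx2-1* (11.31 to 11.47) were high on all 4 arrays. WT replicate 1 stood somewhat apart, with a correlation over probe sets of 0.985 with WT replicate 2 and of 0.976 with either KO array, against 0.997 between the KO arrays. WT replicate 2 correlated at 0.994 and 0.992 with the KO arrays, more closely than with the other WT array. Over all genes, 16 were higher and 140 lower at an adjusted p under 0.05, which became 73 and 221 after centring every array on its own median, and 80 and 270 after cyclic loess. An exact permutation test (two-sided) on 2 and 2 arrays cannot go below p = 0.333, so single genes were judged by limma, and the p values measure the spread between arrays whose separate origin rests on their labels as biological replicates. The titles give both WT arrays the same name, WT1, and the others the names KO1 and KO2, so whether the WT arrays come from separate embryos is not settled by the labels.

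Among the 7 measured genes, *Cfi*, which encodes the protease factor I, rose in the arrays labelled KO, and the other 6 had lower means without passing the test. Of all 19938 genes, 11732 had a lower mean in KO. The lower means covered a protease of the classical route (*C1ra*), factor B of the alternative route (*Cfb*), 2 inhibitors (*Serping1* and *Cd55*) and both receptors of the anaphylatoxins (*C3ar1* and *C5ar1*). At an adjusted p under 0.05 from limma, 1 of 7 was higher, where 0.0802% of all genes were, and 0 of 7 were lower, where 0.702% of all genes were. At an unadjusted p under 0.05, 1 was higher (5.88% of all genes) and 4 were lower (8.58%). Both KO arrays lay below both WT arrays for 4 of 7 genes, where 31.8% of all genes did so, and above them for 1 of 7, where 17.6% did. The median difference of the 7 genes was −0.37 on the log2 scale, with a range from −0.62 to 1.16, and that of all genes was −0.051. In whole lung, fewer cells of a type and less RNA per cell cannot be told apart.

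**Figure D1:**
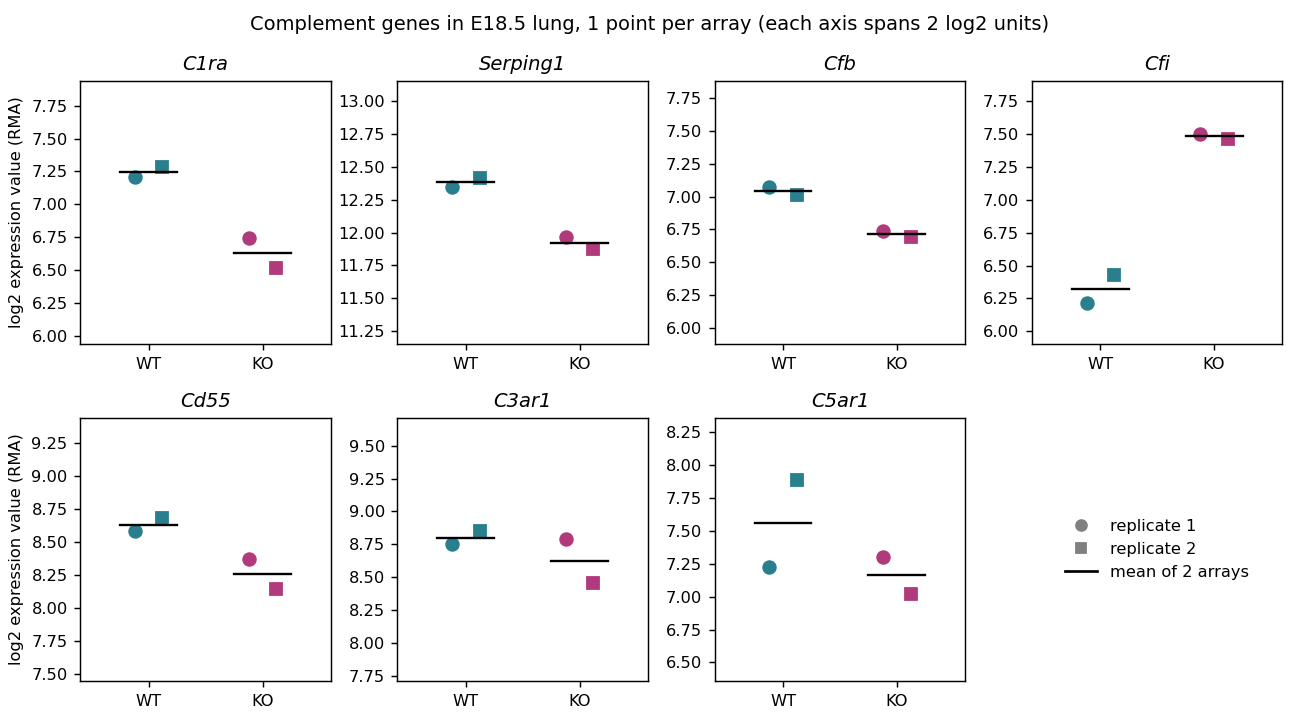
Each panel shows 1 complement gene, with the log2 expression value of each array on the vertical axis, circles for replicate 1, squares for replicate 2 and a bar at the mean of the 2 arrays of a genotype. Both KO arrays lie above both WT arrays for *Cfi* and below them for *C1ra*, *Serping1*, *Cfb* and *Cd55*, and the groups overlap for *C3ar1* and *C5ar1*.

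*Cfi* encodes complement factor I, a serine protease that inactivates C3b and C4b with the help of a cofactor. Its log2 values were 6.22 and 6.43 on the WT arrays, and 7.50 and 7.46 on those labelled KO. Both KO arrays lay more than 1 log2 unit above both WT arrays, and the KO arrays differed from each other by 0.043. The difference was 1.16 (standard error 0.14, adjusted p = 0.0272 from limma), or 2.23-fold, with a 95% interval from 0.83 to 1.49. *Cfi* was thus the gene of the 7 with the widest separation, and the separation held against either WT array, with 1.26 against WT replicate 1 alone and 1.06 against WT replicate 2 alone. Without KO replicate 1 the difference was 1.14 (adjusted p = 0.525 from limma) and without KO replicate 2 it was 1.18 (adjusted p = 0.853 from limma), so the call ended while the size changed little. In these settings adjusted p values passed 0.05 for 1 and for 0 of all genes in limma, while 1057 and 968 had an unadjusted p below it, *Cfi* among them both times. *Cfi* belongs to the dimmest 40 percent of genes and was left out where these were removed.

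*C1ra* encodes the protease C1r, which is activated within the C1 complex and then cleaves C1s. On the log2 scale it read 7.21 and 7.28 on the WT arrays, and 6.74 and 6.51 on those labelled KO. The groups did not overlap, and KO replicate 2 was the lowest of the 4 arrays. The KO mean lay below the WT mean, with a difference of −0.62 on the log2 scale (adjusted p = 0.125 from limma, standard error 0.14), which did not pass the test, with a 95% interval from −0.96 to −0.28. The mouse genome holds a close copy, *C1rb*, and a further probe set that the annotation gives to both genes was not used, so signal from *C1rb* in the *C1ra* value was not tested. *Cfb* encodes factor B, the protease of the alternative pathway convertase. Its log2 values were 7.07 and 7.01 on the WT arrays, and 6.74 and 6.69 on those labelled KO. Replicates lay within 0.065 of each other in both groups, closer than the gap between the groups. The difference of *Cfb* was −0.33 (standard error 0.13, adjusted p = 0.317 from limma), with a 95% interval from −0.63 to −0.024. The lower values of *Cfb* and *C1ra* were found against either WT array alone, at −0.36 and −0.29 for *Cfb* and at −0.58 and −0.66 for *C1ra*.

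Beside *Cfi*, the regulators were *Serping1* and *Cd55*. *Serping1* encodes C1 inhibitor, a serpin that inactivates C1r and C1s as well as the proteases of the lectin route. It had log2 values of 12.35 and 12.42 on the WT arrays, and 11.97 and 11.88 on those labelled KO. The groups did not overlap, and replicates lay within 0.092 of each other. The difference was −0.46 (standard error 0.13, adjusted p = 0.183 from limma), with a 95% interval from −0.77 to −0.15. Without WT replicate 1 or WT replicate 2, *Serping1* passed the test (−0.49, adjusted p = 0.0215, and −0.42, adjusted p = 0.0235, from limma), as did *C1ra* (−0.66, adjusted p = 0.000654, and −0.58, adjusted p = 0.00116, from limma). In these settings the spread comes from the KO arrays alone, and limma called 1133 of all genes lower and 505 higher without WT replicate 1, and 2971 lower and 3321 higher without WT replicate 2. *Cd55* encodes decay-accelerating factor, a membrane protein that takes C3 convertases apart. *Cd55* read 8.58 and 8.68 (log2) on the WT arrays, and 8.37 and 8.15 on those labelled KO. The groups did not overlap, and the KO arrays lay 0.22 apart. The difference was −0.37 (standard error 0.14, adjusted p = 0.308 from limma), with a 95% interval from −0.71 to −0.034. *Cd55b*, a second mouse gene for this factor, had a difference of −0.028 (95% interval from −0.36 to 0.31), and cross-hybridization between these genes was not tested.

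The receptors for C3a and C5a, G protein-coupled receptors of myeloid cells, were lower on average on the arrays labelled KO, with overlapping groups. *C3ar1* read 8.75 and 8.85 (log2) on the WT arrays, and 8.79 and 8.46 on those labelled KO. KO replicate 1 lay between the WT arrays, and KO replicate 2 alone was low. The difference of *C3ar1* was −0.18 (standard error 0.16, adjusted p = 0.610 from limma), with a 95% interval from −0.56 to 0.20, and it was −0.0097 without KO replicate 2. *C5ar1* read 7.23 and 7.89 (log2) on the WT arrays, and 7.30 and 7.02 on those labelled KO. WT replicate 2 was the high array here, and the WT arrays differed by 0.66, more than the difference of −0.39 between the genotypes (standard error 0.23, adjusted p = 0.469 from limma, 95% interval from −0.96 to 0.17). Without WT replicate 1 the difference of *C5ar1* was −0.72 (adjusted p = 0.000115 from limma), and without WT replicate 2 it was −0.066 (adjusted p = 0.788 from limma). All 7 genes were lower in KO replicate 2 than in KO replicate 1, and so was the median of all probe sets, at 7.91 against 8.02.

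For 4 of the 7 genes, *C1ra*, *Cd55*, *C3ar1* and *C5ar1*, the RefSeq promoter table of GRCm38.p6 holds an entry, and the 250 bases before the start were searched on both strands for 4 motifs of factors that act in inflammation. These were the core of the interferon-stimulated response element (GAAANNGAA), the STAT element GAS (TTCNNNGAA), an NF-κB motif (GGNNTTTCC) and a C/EBP motif (TTGCNNAA), of which matches may overlap. Over all 32851 promoters, 7.1%, 7.0%, 4.9% and 9.6% held a match. *C5ar1* had a match to the response element core that began 66 bases before the start, *C3ar1* had an NF-κB match that began 14 bases before it, and *C1ra* and *Cd55* had none of these letters in the window. A match is a description of the letters and was not tested for binding. The stretches of the receptors are shown because they hold a match, which is in capitals, on the minus strand at chr7:16259339-16259588 for *C5ar1* and at chr6:122856158-122856407 for *C3ar1*.
C5ar1: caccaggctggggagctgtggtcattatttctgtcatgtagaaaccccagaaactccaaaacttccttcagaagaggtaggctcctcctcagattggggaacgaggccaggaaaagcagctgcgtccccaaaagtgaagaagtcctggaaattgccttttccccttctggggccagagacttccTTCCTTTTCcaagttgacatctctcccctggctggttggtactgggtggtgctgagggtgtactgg
C3ar1: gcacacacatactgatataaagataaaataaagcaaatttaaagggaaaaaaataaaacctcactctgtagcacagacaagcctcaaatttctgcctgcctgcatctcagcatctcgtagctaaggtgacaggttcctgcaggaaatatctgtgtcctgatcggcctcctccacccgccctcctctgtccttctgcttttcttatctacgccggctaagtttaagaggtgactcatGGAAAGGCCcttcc

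Among the complement genes measured, the largest differences lay outside the 7 described above, in the first components of the pore. Of 46 other complement genes, 43 were measured, 33 with a lower and 10 with a higher mean in the arrays labelled KO, and their median difference was −0.20, beside 11732 lower of 19938 genes in all. Of these 43, 4 fell (*Hc*, *C6*, *C7* and *Mbl1*, against 0.702% of all genes) and 0 rose (0.0802% of all genes) in limma's test, with 13 lower (8.58%) and 1 higher (5.88%) at an unadjusted p under 0.05. Both KO arrays lay below both WT arrays for 23 of the 43 genes, where 31.8% of all genes did so, and above them for 4, where 17.6% did. The lists of complement genes were written with earlier results of these arrays known.

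Of the 7 terminal components, 3 fell, where 0.702% of all genes did, and the other 4 had differences between −0.24 and −0.0039. *Hc* encodes C5, the source of C5a and the base of the pore. Its log2 values were 12.53 and 11.55 on the WT arrays, and 8.85 and 8.56 on those labelled KO. The groups lay far apart, although the WT arrays differed by almost 1 log2 unit. The difference was −3.34 (standard error 0.31, adjusted p = 0.0149 from limma), or 10.1-fold. *C6*, which joins C5b first, had log2 values of 8.75 and 8.36 in WT and of 6.13 and 5.99 in KO, which differ by −2.50 (standard error 0.17, adjusted p = 0.00439 from limma). *C7*, which then anchors the complex in the membrane, had log2 values of 9.81 and 9.59 in WT and of 7.76 and 7.66 in KO, which differ by −1.98 (standard error 0.14, adjusted p = 0.00535 from limma). *C8a*, *C8b*, *C8g* and *C9*, which complete the pore, did not pass, and the groups overlapped for all of them except *C8g*. The calls on *Hc*, *C6* and *C7* ended without KO replicate 1 (adjusted p = 0.401, 0.265 and 0.286 from limma) or KO replicate 2 (adjusted p = 0.607, 0.307 and 0.372 from limma), while their differences stayed between −3.48 and −1.93. In the 250 bases before the start, *C7* had a GAS match that began 164 bases before it, printed in capitals in the sequence of the minus strand of chr15:5063774-5064023, and the entries of *Hc* and *C6* had no match to the 4 motifs. Matches were also found in genes of the pore that did not pass the test, in *C8a* (GAS, 228 bases before the start, minus strand of chr4:104876399-104876648) and in *C9* (C/EBP, 132 bases before it). The stretches of *C7* and *C8a* are shown together because both hold a GAS match and *C7* alone of them fell.
C7: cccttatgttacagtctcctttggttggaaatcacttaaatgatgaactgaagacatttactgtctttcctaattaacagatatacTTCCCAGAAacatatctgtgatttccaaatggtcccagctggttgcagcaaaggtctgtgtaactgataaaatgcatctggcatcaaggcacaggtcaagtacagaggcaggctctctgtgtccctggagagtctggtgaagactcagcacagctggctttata
C8a: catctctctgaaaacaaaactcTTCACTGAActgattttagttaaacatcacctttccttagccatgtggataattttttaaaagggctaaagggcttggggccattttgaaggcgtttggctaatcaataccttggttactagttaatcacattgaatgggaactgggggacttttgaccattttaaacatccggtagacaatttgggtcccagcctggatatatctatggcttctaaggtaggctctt

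In the early part of the cascade, the differences lay on both sides of 0. *C1qa*, *C1qb* and *C1qc*, the chains of C1q, which tissue macrophages make, had differences of −0.051, −0.054 and 0.011, and their groups overlapped. Of the lectin route, *Mbl1*, a mannose-binding lectin, fell, with log2 values of 7.06 and 6.60 in WT and of 5.64 and 5.59 in KO. The change of −1.22 (standard error 0.18, adjusted p = 0.0496 from limma) passed narrowly and no longer did so after centring every array on its own median (adjusted p = 0.0568 from limma), with the mean of all probe sets (0.0514) or without KO replicate 1 (0.627) or KO replicate 2 (0.936). *C1s1*, the protease that C1r cleaves, had log2 values of 7.37 and 7.75 in WT and of 6.74 and 6.61 in KO, which differ by −0.88 (standard error 0.17, adjusted p = 0.0846 from limma), the direction of *C1ra*. *C1s1* passed with the replicate numbers paired either way as a block and after centring every array, but not after cyclic loess. As log2 differences, *C4b* (the cleaved component C4) had −0.67, *C2* (a protease of the C3 convertase) −0.54 and properdin (*Cfp*), which stabilizes the alternative convertase, −0.45, each with groups that did not overlap and none past the threshold. Of other genes of the lectin route, the ficolin gene *Fcnb* had −0.67 (adjusted p = 0.137 from limma), with groups that did not overlap. *Mbl2*, *Fcna* and *Colec11* had −0.11, −0.10 and −0.033, with overlapping groups. The proteases *Masp1* and *Masp2* had 0.32 and −0.21, and the collectin genes *Colec10* and *Colec12* had 0.46 and 0.29. Mouse *C1s1* and *C1s2*, and *C4a* and *C4b*, are close copies, and cross-hybridization between them was not tested.

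Among other regulators, clusterin (*Clu*), which keeps the terminal complex in solution, was on the side of *Cfi*. Its log2 values were 9.12 and 9.89 in WT and 10.93 and 10.90 in KO, and both KO arrays lay above both WT arrays. The difference was 1.41 (standard error 0.25, adjusted p = 0.0745 from limma), which did not pass. In alternative settings with all arrays, *Clu* passed with the replicate numbers paired either way as a block, after centring and after cyclic loess. It also passed without the dimmest 40 percent of genes, and did not with the mean of all probe sets or in the fit with trend and robust. Vitronectin (*Vtn*), which also binds the terminal complex, had a log2 difference of −0.44. Among membrane regulators, *Cd46*, a cofactor of factor I, had log2 values of 8.10 and 6.93 in WT and of 6.76 and 6.24 in KO. Its WT arrays lay further apart than the genotypes, whose difference was −1.01 (standard error 0.38, adjusted p = 0.306 from limma). *Cr1l*, the rodent regulator Crry, had a log2 difference of −0.11, *Cd59a*, an inhibitor of the pore, 0.25 and *Cd59b* 0.075. Thus *Cfi* was the regulator of complement that passed the test, of the 3 measured among the 9 genes and of 11 others. The other receptors all had lower means with groups that did not overlap, 6 of 6, where 31.8% of all genes did so, and 0 of the 6 passed limma's test (2 at an unadjusted p under 0.05). They were, with their log2 differences, *Itgb2* (−0.93, adjusted p = 0.0577 from limma), the beta chain shared by the receptors for iC3b, its partners *Itgam* (−0.28) and *Itgax* (−0.22), *C5ar2*, a second receptor for C5a (−0.48), *Cr2* (−0.20) and *Vsig4* (−0.20). *Itgb2* passed, as lower, in the same alternative settings with all arrays in which *Clu* passed.

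**Figure D2:**
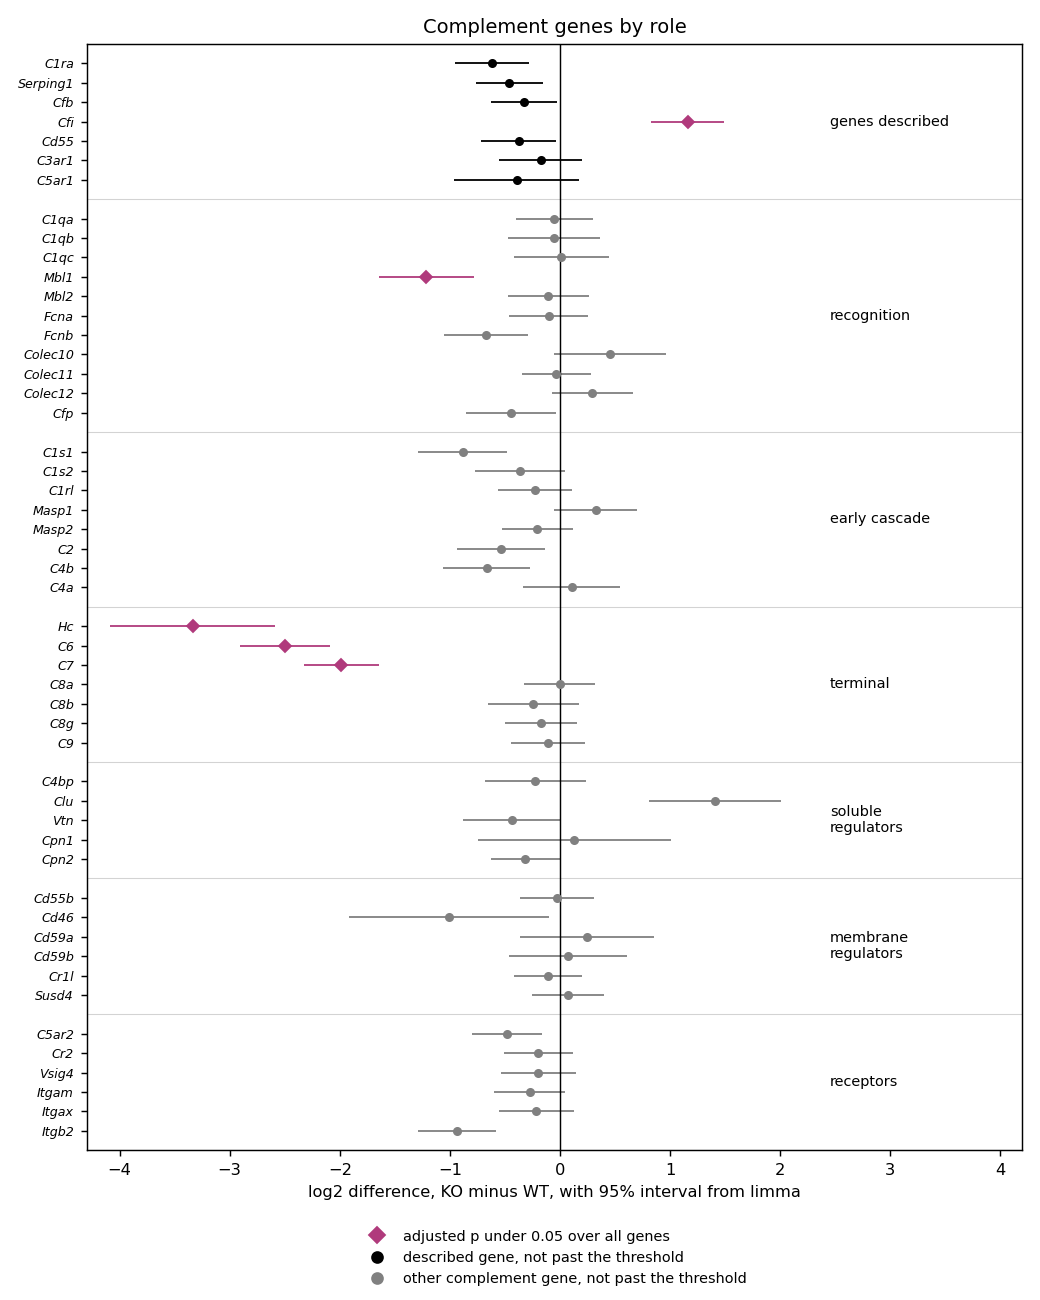
The log2 difference of KO minus WT is on the horizontal axis with its 95% interval from limma, for the 7 measured genes described (top) and 43 other complement genes by role. Diamonds mark an adjusted p under 0.05 over all genes, which *Cfi* (1.16), *Mbl1* (−1.22), *Hc* (−3.34), *C6* (−2.50) and *C7* (−1.98) reached.

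Markers of other cells and of responses differed between the same arrays, and their part in the complement values was not tested. Of all 19938 genes, 11732 had a lower mean in KO, and limma's test called 0.702% lower and 0.0802% higher. At an unadjusted p under 0.05 from limma, 8.58% of all genes were lower and 5.88% were higher. Interferon-stimulated genes had lower means on the KO arrays for 13 of 13 measured genes, of which 5 fell (*Oasl2*, *Irf7*, *Irf9*, *Usp18* and *Ifih1*), and the mean log2 value of the whole list was 9.07 and 8.61 in WT and 7.60 and 7.48 in KO. Acute phase and NF-κB responsive genes had lower means for 11 of 12, of which 3 fell (*Saa3*, *Lcn2* and *Osmr*), with list means of 8.68 and 8.76 in WT and 7.77 and 7.72 in KO. Both lists separated the genotypes on every array, in the direction of the 6 lower complement genes. Macrophage and monocyte markers, of cells that carry both receptors, had lower means for 12 of 12, of which 1 fell (*Lyz2*), with list means of 8.99 and 9.12 in WT and 8.56 and 8.44 in KO. *Lyz2* had the highest values of this list (13.23 and 13.01 in WT, 11.40 and 11.32 in KO), and which cells carried it was not tested. The C1q genes *C1qa*, *C1qb* and *C1qc*, outside the list, had differences of −0.051, −0.054 and 0.011, with overlapping groups. Neutrophil markers had lower means for 10 of 10, of which 0 passed limma's test and 4 had an unadjusted p under 0.05, with list means of 6.86 and 6.84 in WT and 6.47 and 6.36 in KO. Alveolar type II markers had lower means for 8 of 10, of which 3 fell (*Sftpa1*, *Sftpd* and *Lamp3*), with list means of 12.54 and 12.47 in WT and 11.75 and 11.79 in KO. Alveolar type I markers had them for 6 of 6, with list means of 11.64 and 11.59 in WT and 10.47 and 10.36 in KO, and 2 of them fell (*Aqp5* and *Rtkn2*).

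On the side of *Cfi*, fibroblast markers had higher means in the arrays labelled KO for 6 of 7 genes (list means of 10.74 and 10.82 in WT, 11.29 and 11.31 in KO). Genes of cell division had them for 12 of 12 (list means of 9.91 and 10.67 in WT, 11.31 and 11.20 in KO). Of all 19938 genes, 8206 had a higher mean. In the cell division list, 0 passed limma's test and 12 had an unadjusted p under 0.05, where 5.88% of all genes were higher. The fibroblast list was led by *Lum* (2.05, adjusted p = 0.0121 from limma) and *Dcn* (1.13, adjusted p = 0.0455 from limma), and its collagen genes *Col1a1*, *Col1a2* and *Col3a1* had log2 differences of 0.21, 0.18 and 0.24, none past the threshold. *Pdgfra* had 0.0072 with overlapping groups, *Tcf21* had −0.17, and the median difference of the fibroblast list was 0.21. Hepatocyte markers, whose cells make most of the plasma complement, had lower means for 11 of 12, with list means of 6.54 and 6.53 in WT and 6.40 and 6.34 in KO. None of the hepatocyte markers passed limma's test, 0 had an unadjusted p under 0.05, and *Alb* had log2 values of 7.37 and 7.93 in WT and of 7.61 and 7.39 in KO. Mesothelial markers had lower means for 3 of 6 (list means of 9.40 and 9.46 in WT, 9.22 and 8.99 in KO), of which *Msln* fell, endothelial markers for 5 of 6 (list means of 11.80 and 11.91 in WT, 11.65 and 11.61 in KO) and adipocyte markers for 7 of 7 (list means of 6.33 and 6.26 in WT, 6.17 and 6.17 in KO). The median difference of the mesothelial list was −0.02, with −1.42 for *Msln* and −0.58 for *Upk1b*. Its other markers, *Upk3b*, *Lrrn4*, *Gpm6a* and *Wt1*, lay between −0.049 and 0.069, with overlapping groups. No detection calls come with these values, so none of these markers can be given as absent.

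**Figure D3:**
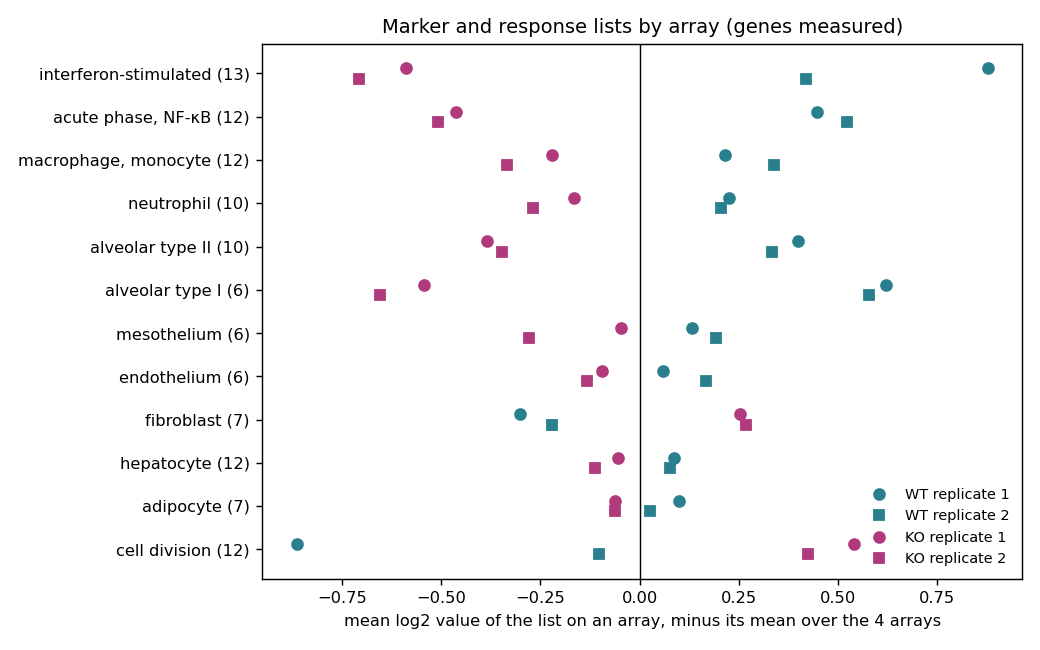
Each point is the mean log2 value of a list of marker or response genes on 1 array minus the mean of that list over the 4 arrays, on the horizontal axis, with the number of measured genes in parentheses. The KO arrays lie left of the WT arrays for all lists except the fibroblast and cell division lists, and WT replicate 1 lies apart from WT replicate 2 for the cell division list (9.91 against 10.67) and the interferon-stimulated list (9.07 against 8.61).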

How the data were processed

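RNA of embryonic lung (E18.5) was hybridized to Affymetrix arrays, 2 for each genotype. The authors deposited log2 summaries of 30177 probe sets, computed by RMA with Affymetrix Expression Console (per the submitters' processing notes, versions not given in the sources used here), which corrects the background, quantile-normalizes and summarises by median polish. They were used as they stand. The annotation gives 1 symbol for 21789 probe sets, several for 1621 and none for 6767, and the brightest with 1 symbol stood for each of 19938 genes. KO was compared with WT by limma 3.58.1 in R 4.3.3 (lmFit, eBayes without trend, residual degrees of freedom 2) with Benjamini-Hochberg adjustment over all genes at 0.05. The code was tested on simulated data. Members and lists were chosen with earlier results of these data known. Named genes are the 9 members, other complement genes, *Hmga2* and leading or defining markers of the lists (macrophage, neutrophil, alveolar type I and II, mesothelial, fibroblast, endothelial, hepatocyte, adipocyte, interferon, acute phase, cell division). Alternative fits took the replicate number as a block, centred each array, used cyclic loess, left out the dimmest 40 percent, averaged probe sets, used trend and robust, or left out each array in turn. Figures used matplotlib 3.10.9 in Python 3.11.15.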

Additional observations from a re-analysis of the deposited data

How the results depend on the processing

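The median difference of the 7 genes was −0.37 and lay between −0.34 (cyclic loess) and −0.37 in the settings with all arrays, and between −0.49 and −0.26 with 1 array left out. None of the 7 genes changed direction in any setting. The number called higher was 1 and the number called lower was 0 with all arrays in each setting, except that without the dimmest 40 percent of genes 0 were called higher, because *Cfi*, *Cfb*, *C1ra* and *C5ar1* are then not tested. With 1 array left out, 0 to 1 of the 7 were higher and 0 to 3 lower. Of the 43 other complement genes, 4 were called lower and 0 higher. These counts were 7 and 1 with the replicate number as a block and 6 and 1 with the crossed pairing as a block, which was chosen after seeing the data because the deviations of arrays with the same number correlated at −0.143. Over all genes the calls went in the same fits from 140 lower and 16 higher to 361 and 241 with the block and to 305 and 207 with the crossed pairing. Nothing in the labels pairs the numbers, and the block changed no call on the 7 genes. The number called higher among the 43 was also 1, each time *Clu*, after centring on array medians, after cyclic loess, and when the dimmest 40 percent were removed. With 1 array left out, 0 to 14 of them were lower and 0 to 6 higher. In those settings the remaining array of a group is taken to have the spread of the other genotype. The number of arrays and the unknown background of the dim probe sets limit the precision.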
